A study of Mus musculus with 12 samples.

Results

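The regions described here are those called for H3K9me2 whose centre lies in a transcribed part of a gene other than an intron or the last exon, that is in another exon or in an untranslated region (UTR). They were taken from both deposited comparison tables by the table's own annotation of the centre, on the 19 autosomes, with 1 row kept per region. The FAD versus WT table held 409 such regions of 33787 regions in all (1.21%), and the FAD-BIX versus FAD table held 547 of 43680 (1.25%). Both tables shared 316 of them with identical coordinates, and together they held 640 distinct ones. A further 6 and 7 such regions lay on other chromosomes and were not used.

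ChIP-seq, the sequencing of DNA that comes down with an antibody to a chromatin mark, was run on punches of prefrontal cortex of C57BL/6 mice aged 5 to 6 months. FAD-BIX mice carried familial Alzheimer's disease mutations and were given BIX01294, a small-molecule inhibitor of EHMT1 and EHMT2. FAD mice carried the same kind of mutations without the inhibitor, and WT mice were wild type. Which FAD line was used, the promoter behind its transgenes and the dose of the inhibitor are not given in the sources used here. There were 2 mice per group, with 1 ChIP library from each and 1 input library of its sheared chromatin without precipitation.

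Dimethylation of lysine 9 of histone H3 (H3K9me2) is placed largely by EHMT1 and EHMT2, also called GLP and G9a, and covers broad stretches of inactive chromatin. In the brain it is known for keeping genes of other tissues and of development silent. Exons of actively transcribed genes usually carry little of it.

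Library totals were 20.4 to 26.6 M reads for ChIP and 13.9 to 23.8 M for input. Input reads over Thy1, a gene whose promoter is often used to drive transgenes in neurons, came to 183 and 94.4 RPM, that is reads per 1 M reads of the library, in the FAD-BIX mice and 179 in FAD mouse 2, but to 2.16 in the mouse labelled FAD 1. That mouse is therefore called by its label throughout, and results that rest on its ChIP library are given with and without it. Of the cell type lists, 1 of 33 neuron genes had an exon or UTR region (Map2), 1 of 17 endothelial genes (Kdr) and 1 of 16 microglia genes (Lpl), while the astrocyte, oligodendrocyte, fibroblast and smooth muscle, and blood lists had none in either table. Summed over its member, the neuron list held 12 and 10 reads in FAD-BIX, 11 and 32 in FAD, and 12 and 7 in WT libraries, and with so few members the tissue of a library could not be checked on these regions.

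Few of these regions overlapped a promoter window, and the share among all regions was not taken. There were 26 in the FAD versus WT table that overlapped 27 RefSeq promoter windows, and 31 in the FAD-BIX versus FAD table that overlapped 33. A window runs from 250 bases before to 50 bases after the start of transcription (RefSeq, build GRCm38.p6). The sequence TATAAA, searched on both strands, was found between bases -40 and -11 in 11.1% and 12.1% of these windows, against 2.66% of all 32851 promoters. Over the whole window it was found in 25.9% and 39.4%, against 13.6% of all promoters. More than 10 CG pairs were found in 22.2% and 21.2% of these windows, against 41.4% of all. These shares rest on few windows and were not tested.

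Among the genes described below, regions covered the whole stretch from base -40 to -11 in Nppb, which encodes a natriuretic peptide of the heart, and in Olfr960, an olfactory receptor gene. They are shown as 1 gene of heart muscle and 1 of the receptor families that are silent in cortex. Capitals mark TATAAA and CG pairs, and both read 5′ to 3′ on the plus strand.
Nppb, chr4:147985860-147985889: cagccccagTATAAAaggcagaggcacCGt
Olfr960, chr9:39623085-39623114: aagaatttctttccacagactcccaggagc
Nppb held 1 TATAAA and 1 CG there, and Olfr960 neither. A match of letters is a description and shows no binding, and the absence of a match says only that these letters are not in this window.

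Most exon and UTR regions were small. The median width was 327 bp in the FAD versus WT table and 333 bp in the other, with a range of 240 to 2255 bp in each. Intron regions had medians of 322 and 318 bp. Regions of 1 kb or more made up 1.22% and 1.10% of exon and UTR regions, against 0.432% and 0.481% of intron regions. In the FAD versus WT table, 265 were centred in an exon (64 of them in the first exon), 115 in a 3′ UTR and 29 in a 5′ UTR. The other table had 349 (88 in the first exon), 160 and 38 of each kind.

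Many regions ran past the exon that gave them their label. Both ends lay in exons or UTRs in 194 of 409 regions of the FAD versus WT table and in 257 of 547 of the other. Both lay in introns in 79 and 102, so that the region spanned its exon entirely. An end lay outside the gene in 58 and 77. The ratio of ChIP to input was taken for both kinds in the FAD-BIX versus FAD table. With both ends in exons or UTRs the log2 medians were 0.85 and 1.59 in FAD-BIX mice and 1.08 and 1.86 in FAD mice. With both ends in introns they were 0.85 and 1.28 in FAD-BIX mice and 1.20 and 2.06 in FAD mice.

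The regions belonged to 359 and 487 genes by identifier, and 79 and 108 regions had no gene symbol. Most genes had a single one. In the FAD versus WT table the genes with the most were the titin gene Ttn with 8, the uncharacterised D10Wsu102e with 7, the cation channel gene Trpv4 with 6, and Fat3, an atypical cadherin gene, with 4. In the other table Ttn had 13. The genes were picked for their count of regions. Regions of 1 gene share their source and are not independent.

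As in the tables as a whole, nearly all of these regions were called in a single library. Of the 409 in the FAD versus WT table, 389 (95.1%) were called in 1 library, 13 in 2, 6 in 3 and 1 in 4. Exon and UTR regions made up 2.05% of the 3904 regions called in the library labelled FAD 1 and 1.26% of the 21849 called in FAD ChIP 2, against 0.665% of 5867 in WT ChIP 1 and 1.02% of 4133 in WT ChIP 2. Their share was thus largest in the library labelled FAD 1. In the other table they made up 1.00% of 9753 regions called in FAD-BIX ChIP 1 and 1.18% of 11347 in FAD-BIX ChIP 2, and again 2.13% for the FAD library labelled 1 and 1.27% for FAD ChIP 2.

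Regions called in 3 or more libraries of the FAD versus WT table were few. Muc6, a gastric mucin gene (exon 31; chr7:141638676-141639838), held 169 and 154 reads in the FAD mice, against 148 and 122 in the WT mice. Input counts there were 17 and 46 in the FAD mice, against 57 and 68 in the WT mice. Flg2, which encodes a filaggrin of the skin barrier (exon 2; chr3:93202667-93203299), held 43 and 54 reads in the FAD mice, against 25 and 33 in the WT mice. Slc30a4, a zinc transporter gene (3′ UTR; chr2:122681335-122682323), held 124 and 26 reads in the FAD mice, against 89 and 107 in the WT mice. Slc30a4 overlapped between the groups, while both FAD libraries lay above both WT libraries in Muc6 and in Flg2 (log2 fold of Flg2 0.35 ± 0.43, SE, n = 2 mice per group). On the RPM scale, both FAD libraries lay above both WT libraries in 29.6% of all 33787 regions and below both in 7.09%. The others were an exon 13 region of Trpv4, described below, the predicted genes Gm9758 and Gm9732, and a first exon with no symbol. That first exon (chr11:3192989-3195244), the widest region, was called in all 4 libraries of each table and held 1764 and 1699 reads in FAD-BIX, 1981 and 2659 in FAD, and 1569 and 2512 in WT. Its inputs were high too, with 881 and 622 reads in FAD-BIX, 558 and 1052 in FAD, and 1041 and 1072 in WT. It and Muc6 lay high in every library, inputs included.

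The level of the mark over its input differed more between mice than between exons and introns. The ratios are the authors' own, with 1 read added to each count. Over the 409 regions of the FAD versus WT table the median on the log2 scale was 1.20 in the mouse labelled FAD 1 and 2.12 in FAD mouse 2, against 0.67 and 0.63 in the WT mice. The 8098 intron regions had 1.08 and 2.20 in FAD, against 1.06 and 0.87 in WT mice. FAD mouse 2, whose ChIP library called most of the regions, had the highest median in both classes. In the FAD-BIX versus FAD table the exon and UTR medians were 0.85 and 1.48 in FAD-BIX mice and 1.20 and 1.92 in FAD mice. Its intron medians were 1.11 and 1.56 in FAD-BIX mice and 1.05 and 1.95 in FAD mice. In bulk tissue a change of the mark per cell and a change in the makeup of cells cannot be told apart.

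**Figure D1:**
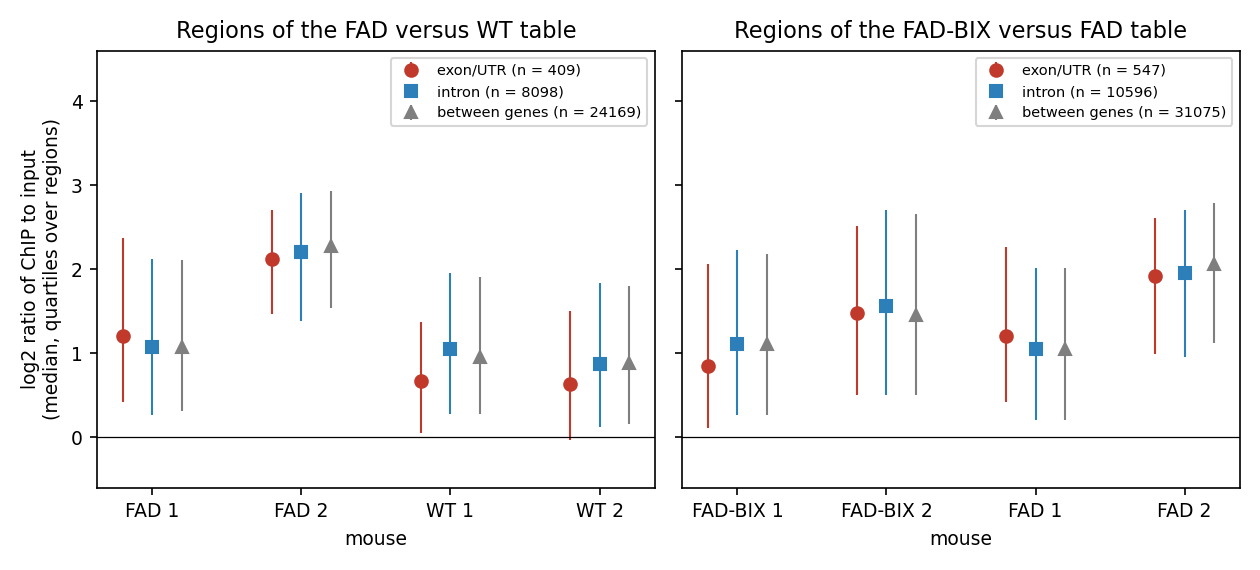
Median log2 ratio of ChIP to input, with quartiles over regions, for each mouse of the FAD versus WT table (left) and the FAD-BIX versus FAD table (right). Exon and UTR regions (circles) lay below intron regions (squares) in 3 of 4 mice of each table and above them in the mouse labelled FAD 1, where the medians were 1.20 and 1.08 in the left panel. Regions called and not called in a mouse's own ChIP library are pooled.

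Within mice, the difference between exon or UTR regions and intron regions was smaller than its spread between mice. The difference of medians, exon and UTR minus intron, was 0.13 in the mouse labelled FAD 1, -0.08 in FAD mouse 2, and -0.39 and -0.24 in the WT mice. Its mean was -0.14 (SD 0.22, n = 4 mice; exact sign-flip permutation test, two-sided, p = 0.375). In the FAD-BIX versus FAD table it was -0.26 and -0.08 in the FAD-BIX mice, 0.15 in the mouse labelled FAD 1 and -0.04 in FAD mouse 2, with a mean of -0.06 (SD 0.17, n = 4 mice; exact sign-flip permutation test, two-sided, p = 0.625). With 4 mice the smallest p such an exact test can give is 0.125. The mouse labelled FAD 1 was the only one of each table above 0. Its library called 80 of 409 exon and UTR regions of the FAD versus WT table, against 987 of 8098 intron regions. The differences thus depend in part on which library called a region. Over regions not called in a mouse's own library, that table's medians were 0.94 (exon and UTR) and 0.90 (intron) in this mouse. They were 0.86 and 1.12 in FAD mouse 2, 0.54 and 0.76 in WT mouse 1, and 0.54 and 0.66 in WT mouse 2. With genes of the heart muscle list left out the mean differences were -0.11 and -0.06.

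The level per length depended in part on a single region. Over exons and UTRs, RPM per kb of region came to 2.71 and 3.53 in FAD libraries and 1.74 and 2.07 in WT libraries. Over introns it came to 1.62 and 2.73 in FAD libraries and 1.57 and 1.60 in WT libraries. The first exon with no symbol on chromosome 11 alone held 1981 of 10547 reads in the library labelled FAD 1 and 2512 of 8596 in WT ChIP 2. Without it, a choice made after the data were seen, exons and UTRs held 2.24 and 2.75 RPM per kb in FAD libraries and 1.35 and 1.49 in WT libraries, so that they lay above introns in the library labelled FAD 1, close to them in FAD ChIP 2 and below them in both WT libraries. Of 423 RPM summed over exons and UTRs in the library labelled FAD 1, the 20 heart muscle list regions held 61.2 and the 6 Trpv4 regions 40.6. The median read count per region was 13 and 20 in FAD, against 9 and 11 in WT libraries. At such counts, counting error alone is large for a single region.

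Regions with more signal than input in every mouse were counted next. Of 409 in the FAD versus WT table, 184 (45.0%) had a ratio above 1 in all 4 mice, against 48.7% of intron regions and 50.6% of all regions. A ratio above 2 in all 4 mice was found in 25 (6.11%), against 9.40% of intron regions. Those of the FAD-BIX versus FAD table were 288 (52.7%) and 65 (11.9%), against 52.5% and 11.7% of intron regions. The shares were not tested.

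The ChIP library labelled FAD 1 stood apart in exons of heart muscle genes. Of the 69 genes in the list, 9 had 20 exon or UTR regions in the FAD versus WT table and 11 had 30 in the other. The list and these regions were known from earlier results of these data, so the values are a description. Summed over the 20 regions, 1525 reads were in the library labelled FAD 1 and 306 in the other FAD library, against 176 and 195 in WT. The inputs held 81 and 110 reads in the FAD mice, against 159 and 103 in the WT mice, with no excess in the input of the mouse labelled FAD 1. What sets this library apart was not tested. On the RPM scale the sums were 61.2 and 14.7 in FAD, against 7.19 and 7.34 in WT. Over the 30 regions of the other table the sums were 264 and 270 reads in FAD-BIX, 1892 in the library labelled FAD 1 and 387 in the other FAD library.

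Several members encode parts of the contractile apparatus. Myh6, the heavy chain of cardiac myosin, held 293 and 27 reads at exon 22 (chr14:54952892-54953945) in the FAD libraries, the first being the one labelled FAD 1, against 19 and 18 in WT. For the FAD-BIX libraries it was 8 and 15. At exon 13 of Myh6 the counts were 5 and 1 in FAD-BIX, 82 and 6 in FAD, and 8 and 2 in WT. In both, the library labelled FAD 1 was far above the rest. The 3′ UTR of Actc1, which encodes cardiac alpha-actin (chr2:114047268-114047697), held 5 and 2 reads in FAD-BIX, 136 and 13 in FAD, and 7 and 8 in WT. Lmod2, a leiomodin that lengthens actin filaments, held 14 and 16 in FAD-BIX, 60 and 14 in FAD, and 17 and 26 in WT at exon 2. For Lmod2 the FAD mouse 2 library lay at the level of the others.

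Titin, the giant elastic protein of the sarcomere, differed along its gene. At exon 344 of Ttn the counts were 10 and 15 in FAD-BIX, 53 and 4 in FAD, and 9 and 7 in WT. At exon 309, further from the 3′ end, they were 6 and 12 in FAD-BIX, 6 and 25 in FAD, and 8 and 11 in WT. The library labelled FAD 1 was the highest at exon 344 and among the lowest at exon 309. Over all 8 Ttn regions of the FAD versus WT table the sums were 243 and 143 reads in the FAD mice, against 84 and 85 in the WT mice. FAD ChIP 2 was thus above WT as well, although its library was smaller (20.8 M reads, against 24.5 and 26.6 M in WT). Neither WT library called any of these 8 regions, while FAD ChIP 2 called 4 and the other FAD library 5. The Ttn regions thus entered through FAD libraries only, and the order of the sums is no evidence of a difference.

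Other members of the list encode calcium handling proteins and natriuretic peptides. Pln, whose product phospholamban holds back the calcium pump of cardiac muscle, held 0 and 4 reads in FAD-BIX, 147 and 5 in FAD, and 2 and 2 in WT in its 5′ UTR (chr10:53343748-53344635). The 3′ UTR of Ryr2, the calcium release channel of heart that neurons also make, held 3 and 2 in FAD-BIX, 23 and 4 in FAD, and 3 and 5 in WT. At both the other libraries were near each other. Ryr2 exon 75, found only among the regions of the FAD-BIX versus FAD table, went the other way, with 12 and 19 reads in FAD-BIX against 5 and 3 in FAD libraries (log2 fold 2.29 ± 0.93). The 5′ UTR of Nppb, whose start is printed above, held 8 and 6 in FAD-BIX, 40 and 27 in FAD, and 8 and 15 in WT. Here FAD ChIP 2 was also above both FAD-BIX and both WT libraries, while the WT inputs held 24 and 8 reads.

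**Figure D2:**
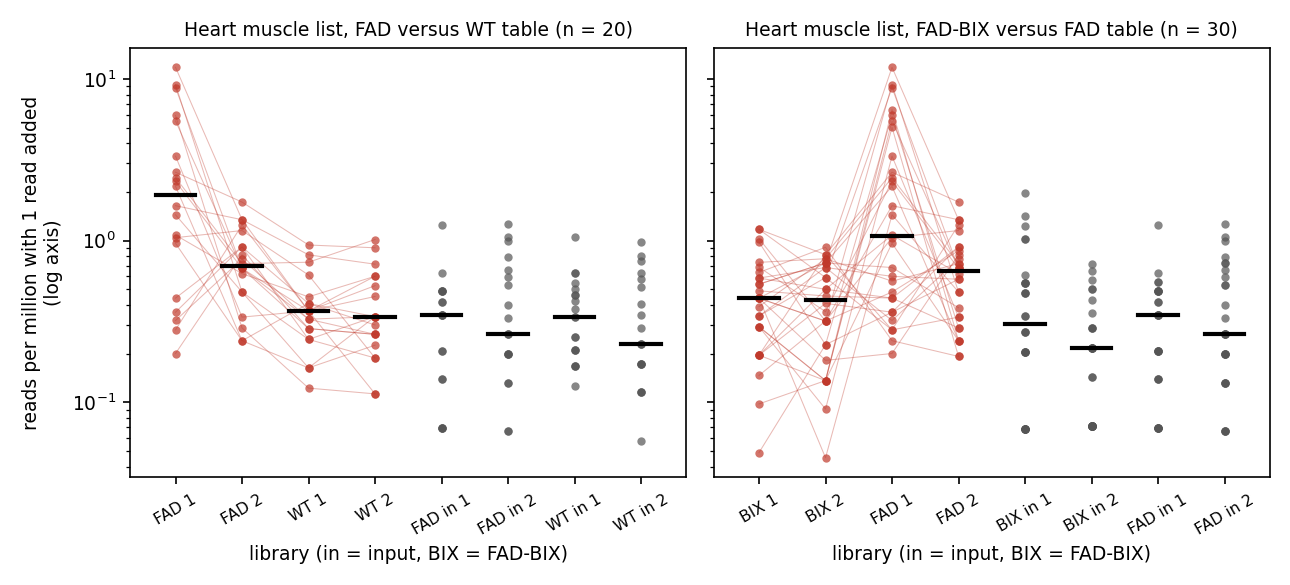
RPM with 1 read added (log axis) at the exon and UTR regions of the heart muscle list, for each ChIP library (red, lines join a region) and input library (grey) of the FAD versus WT table (left, 20 regions) and the FAD-BIX versus FAD table (right, 30 regions), with black bars at the medians. The library labelled FAD 1 spreads upwards from the others, and its summed level was 61.2 RPM in the left panel, while FAD ChIP 2 had 14.7 and the WT libraries 7.19 and 7.34.

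Calls in exons and UTRs of the list were set beside calls in introns of the list. Of the 20 exon and UTR regions of the FAD versus WT table, 15 (75.0%) were called in the library labelled FAD 1, 7 in the other FAD library and 0 in either WT library. Of all regions of that table, these libraries called 11.6% (the one labelled FAD 1), 64.7% (FAD ChIP 2), 17.4% (WT ChIP 1) and 12.2% (WT ChIP 2). Of 34 intron regions of heart list genes, 4 (11.8%) were called in the library labelled FAD 1, a share like that of all regions. The median log2 ratio of that library over FAD ChIP 2 was 1.67 in exons and UTRs and -0.99 in introns. In the FAD-BIX versus FAD table it was 0.70 in 30 exon and UTR regions and -0.97 in 31 intron regions. The sets hold different genes in part and were not tested against each other. The 2 intron regions of Myh6 had medians of 7.24 RPM (the library labelled FAD 1) and 0.649 RPM (FAD ChIP 2) in FAD mice, against 0.694 and 0.357 in WT. The intron region of Actc1 had 4.61 and 0.962 RPM in FAD, against 0.735 and 0.263 in WT. In these genes the introns were thus high in the library labelled FAD 1 as the exons were, while the 8 intron regions of Ryr2 had medians of 0.341 and 1.23 RPM in FAD, against 0.531 and 0.339 in WT.

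A few genes outside the list had the same pattern. The 3′ UTR of Lpl, lipoprotein lipase, had a pair of regions. The first (chr8:68905516-68906896) held 5 and 12 reads in FAD-BIX, 169 and 2 in FAD, and 21 and 13 in WT, and the other held 6 and 2 in FAD-BIX, 65 and 10 in FAD, and 4 and 10 in WT. Lpl is on the microglia list and is also made in heart, muscle and fat. Slc25a4, the ADP/ATP carrier of muscle mitochondria (3′ UTR; chr8:46207356-46207604), held 0 and 8 in FAD-BIX, 82 and 4 in FAD, and 0 and 2 in WT. In all 3 regions the library labelled FAD 1 was the highest. On the RPM scale FAD ChIP 2 lay below the other groups at the first Lpl region and within their range at Slc25a4. At the second Lpl region it lay above them, with 0.481 RPM, against 0.293 and 0.091 in FAD-BIX and 0.163 and 0.376 in WT. Counting regions with 20 reads or more in a library and at least 4 times the RPM of the next, the library labelled FAD 1 had 12 of 409 exon and UTR regions (2.93%; 8 in the heart list), against 5 of 814 last exon regions (0.614%), 10 of 8098 intron regions (0.123%) and 50 of all 33787 (0.148%). FAD ChIP 2 had 6 exon and UTR regions (1.47%), against 345 of all regions (1.02%). The WT libraries had 0, against 0.189% (WT ChIP 1) and 0.136% (WT ChIP 2) of all regions. These shares are too small for the 0 to be read as a contrast.

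**Figure D3:**
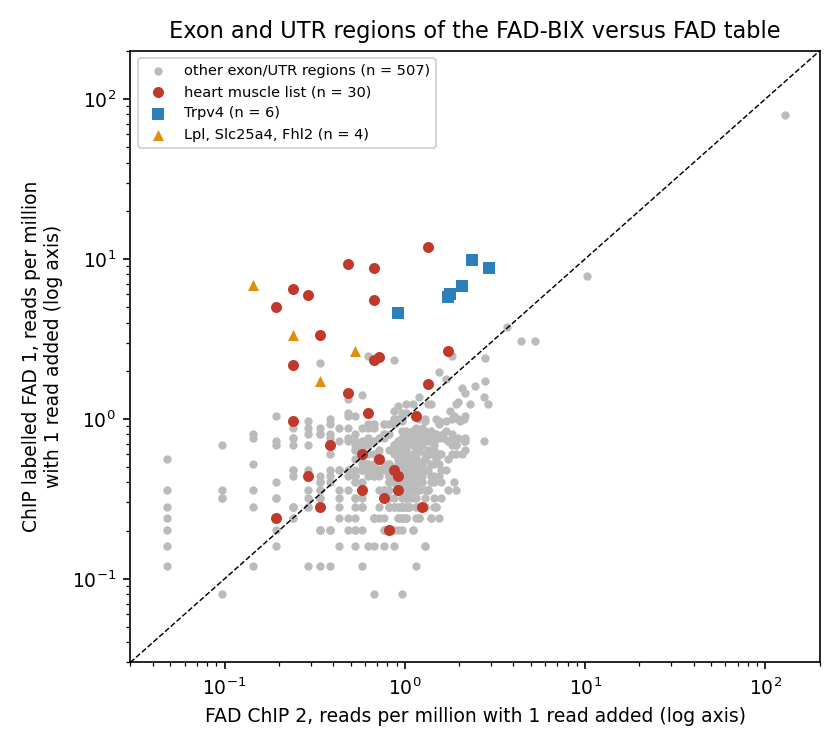
RPM with 1 read added in the ChIP library labelled FAD 1 (vertical, log axis) against FAD ChIP 2 (horizontal, log axis) for the 547 exon and UTR regions of the FAD-BIX versus FAD table, with a dashed line of equal level. Heart muscle list regions (red circles), Trpv4 (blue squares) and Lpl, Slc25a4 and Fhl2 (orange triangles) make up nearly all points far above the line, and most other regions (grey) lie below it, with median levels of 0.481 RPM on the vertical and 0.865 RPM on the horizontal axis.

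Trpv4, which encodes a cation channel opened by swelling and warmth, had a run of 6 exon regions along 1 gene. They were centred in exons 2, 3, 6, 7, 11 and 13 (chr5:114626603-114644919). Their summed reads in the FAD versus WT table were 1012 and 237 in the FAD libraries, the one labelled FAD 1 being the higher, against 243 and 169 in WT, with inputs of 55 and 59 reads in the FAD mice, against 126 and 95 in the WT mice. The ratio of summed ChIP to summed input on the RPM scale was 10.6 in the mouse labelled FAD 1 and 2.91 in FAD mouse 2, against 1.87 and 1.16 in WT. In the FAD-BIX versus FAD table the sums were 537 and 241 reads in FAD-BIX, against 1035 and 239 in FAD libraries, and the ratios 8.58 and 4.12 in FAD-BIX, against 10.6 and 2.89 in FAD mice. The mice of 1 group thus differed from each other. On the RPM scale the sums were 40.6 and 11.4 in FAD libraries, against 9.92 and 6.36 in WT, and neither the sums nor the ratios overlapped. Of all single regions, 29.6% had both FAD libraries above both WT libraries, while the regions at exons 3 and 13 of Trpv4 overlapped. The library labelled FAD 1 called all 6 regions and FAD ChIP 2, WT ChIP 1 and WT ChIP 2 called 1 each. The order thus follows in part from how the regions entered. Between FAD-BIX and FAD mice the sums and the ratios overlapped. The sums there were 26.3 and 11.0 RPM in FAD-BIX, against 41.5 and 11.5 in FAD libraries. The 3 intron regions of Trpv4 had medians of 3.33 and 1.01 RPM in FAD, against 1.10 and 0.752 in WT, so that the library labelled FAD 1 was high there too.

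Counts at single exons are given for the first, a middle and the last region. At exon 2 the counts were 121 and 57 in FAD-BIX, 243 and 48 in FAD, and 44 and 40 in WT. At exon 6 they were 66 and 22 in FAD-BIX, 168 and 42 in FAD, and 19 and 27 in WT. At exon 13 they were 134 and 54 in FAD-BIX, 219 and 60 in FAD, and 80 and 52 in WT. At all 6 exons the library labelled FAD 1 was the highest and FAD-BIX ChIP 1 the second by count. The log2 fold of FAD over WT was 2.02 ± 0.76 at exon 6, 1.63 ± 0.79 at exon 2 and 0.87 ± 0.72 at exon 13. Without the library labelled FAD 1 it was 0.09, -0.60 and -0.95.

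**Figure D4:**
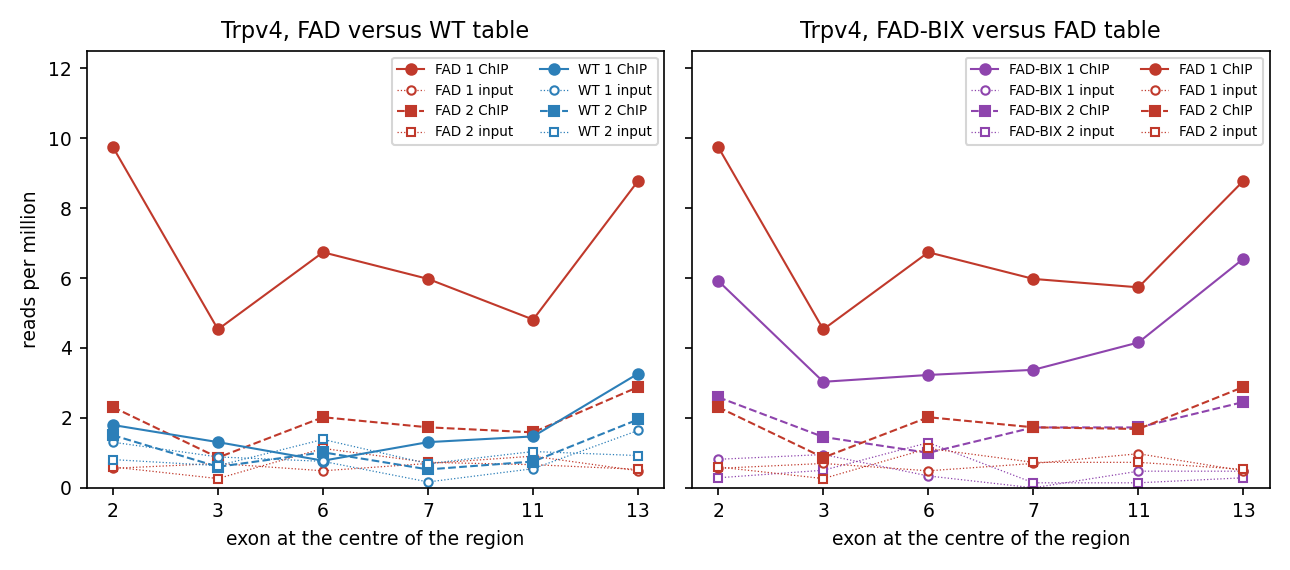
RPM at the 6 exon regions of Trpv4, for each ChIP library (filled symbols) and input library (open symbols) of the FAD versus WT table (left) and the FAD-BIX versus FAD table (right). The library labelled FAD 1 lies above all others at each exon, with a sum of 40.6 RPM in the left panel, while FAD ChIP 2 had 11.4 and the WT libraries 9.92 and 6.36, and FAD-BIX ChIP 1 lies between, at 26.3.

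The comparison of FAD with WT asks which regions gain or lose H3K9me2 with the mutations, and no exon or UTR region passed. Of 327 regions kept by the filter on low counts, 0 passed at a Benjamini-Hochberg threshold of 0.05 by the quasi-likelihood method of edgeR (smallest adjusted p = 0.832), as did 0.0% of all 27778 regions tested. Without adjustment, p was under 0.05 for 3 with higher and 10 with lower counts in FAD (0.917% and 3.06%), against 0.918% and 4.97% of all tested regions. The median log2 fold was 0.14 over these regions and 0.01 over all. By DESeq2 0 passed, as did 0.0% of all regions, with 8 higher and 8 lower at that p (0.195% and 2.71% of all). A limma fit of ChIP over input also called 0, with 25 above and 3 below at that p (5.5% and 1.11% of all). Scaling by library totals moved the median log2 fold of all regions to 0.64 and that of exon and UTR regions to 0.78, so that only differences relative to the other regions can be read. The balance of directions turned with the scaling and with the FAD library. At that unadjusted p, library totals gave 16 higher and 1 lower (2.31% and 0.248% of all), and with the library labelled FAD 1 also left out 86 and 9 (18.2% and 1.15% of all). Under TMM, leaving out that library gave 2 higher and 23 lower (0.171% and 9.56% of all), and leaving out FAD ChIP 2 gave 25 and 6 (1.7% and 1.79% of all). Under library totals 1 region passed the adjusted threshold as higher, Myh6 exon 22 (0.0072% of all), and with the library labelled FAD 1 also left out 1 as lower, Gm15319 (0.0335% of all).

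Among the regions with the smallest p and higher counts in FAD, Gpr75, a G protein-coupled receptor gene, held 15 and 23 reads in the FAD mice, against 0 and 3 in the WT mice in its 3′ UTR (chr11:30893169-30893445; log2 fold 3.18 ± 1.11). Fras1, which encodes a protein of basement membranes, held 10 and 20 in FAD, against 0 and 3 in WT at exon 30 (2.80 ± 1.27). The imprinted, retrotransposon-derived gene Peg10 had a pair of regions in its 3′ UTR. The one at chr6:4756657-4756950 held 17 and 26 in FAD, against 5 and 8 in WT (1.29 ± 0.61). The other, at chr6:4756067-4756352, held 7 and 15 in FAD, against 17 and 10 in WT, so that the groups overlapped there. The regions of Gpr75 and Fras1 and the first of Peg10 were chosen by their p, so that groups without overlap are no further evidence. Without the library labelled FAD 1 these 3 stood at 3.11, 2.91 and 1.22, from reads that were part of that choice. Exon 1 of Smcr8, of an autophagy complex, held 19 and 32 in FAD, against 9 and 7 in WT (1.21 ± 0.54), and the 3′ UTR of the cytokine receptor gene Il10rb held 24 and 24 in FAD, against 6 and 11 in WT (1.13 ± 0.57). The other 5 of the 10 were 3 exons of Trpv4, Myh6 exon 22 and Nppb (1.23 ± 0.57). Without the library labelled FAD 1, Myh6 exon 22 stood at -0.24 and Nppb at 0.46.

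Among the 10 with lower counts in FAD, 3 lay in receptor genes of smell. Vmn2r117, a vomeronasal receptor gene, held 9 and 4 reads in the FAD mice, against 21 and 28 in the WT mice at exon 3 (chr17:23477602-23477890; log2 fold -2.22 ± 0.65). Olfr190 held 2 and 4 in FAD, against 9 and 22 in WT (-2.73 ± 0.89), and Olfr743 8 and 1 in FAD, against 14 and 21 in WT (-2.18 ± 0.92). Esr1, the oestrogen receptor alpha gene, held 9 and 4 in FAD, against 24 and 19 in WT at exon 7 (-2.05 ± 0.68). Ncoa7, a nuclear receptor coactivator gene, held 13 and 9 in FAD, against 22 and 35 in WT in its 3′ UTR (-1.70 ± 0.55), and Dnah7a, a dynein gene of cilia, 7 and 7 in FAD, against 22 and 12 in WT at exon 19 (-1.68 ± 0.69). The others were the desmosome gene Dsg1c (-1.74 ± 0.64), the sperm motility kinase gene Smok2b (-1.82 ± 0.69), the predicted gene Gm15319 (-2.69 ± 0.94) and a first exon with no symbol on chromosome 8 (-1.81 ± 0.71). Smok2b overlapped, with 2 and 19 reads in the FAD mice, against 31 and 19 in the WT mice. All 10 were chosen by their p, so that groups without overlap are no further evidence. On the RPM scale both FAD libraries lay below both WT libraries in 7.09% of all regions. The adjusted p of these 20 regions lay between 0.832 and 0.861 in edgeR's test.

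Leaving out a FAD library changed the calls. That heart gene exons are raised in the library labelled FAD 1 was known beforehand, and the 12 regions below were each called in it, so calls that rest on this library alone describe it and are no test of the mutations. Without FAD ChIP 2, 12 of 352 exon and UTR regions passed with higher counts in the library labelled FAD 1 than in WT, against 0.0694% of all 30275 regions (21 regions). They were 3 exons of Trpv4 (6, 2 and 7), both regions of Lpl, both of Actc1, 2 of Myh6, and those of Mb, which encodes the oxygen store myoglobin, Pln and Slc25a4, with log2 folds of 2.50 to 6.18. Without the library labelled FAD 1, 0 passed as higher (0.00305% of all) and 4 of 388 as lower, against 0.359% of all 32835 regions. These were Slc30a4 (-2.69 ± 0.59), Gm15319, the 3′ UTR of Gm9732 and exon 3 of Vmn2r115. They rest on FAD ChIP 2 as the only FAD library and are no test of the mutations either. Inputs at Slc30a4 held 27 and 21 reads in the FAD mice, against 44 and 8 in the WT mice. Gm15319 held 14 and 0 ChIP reads in the FAD mice, against 39 and 37 in the WT mice. Vmn2r115 belongs to a family of near-identical genes, so the gene given is uncertain. With 1 FAD library left, it is assumed to vary like the WT libraries.

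The comparison of FAD-BIX with FAD asks the same of the inhibitor. Of 387 exon and UTR regions tested, 0 passed at the same threshold in edgeR (smallest adjusted p = 0.897), as did 0.0% of all 31055. Without adjustment, p was under 0.05 for 10 with higher and 9 with lower counts in FAD-BIX (2.58% and 2.33%), against 3.93% and 1.18% of all tested regions. The median log2 fold was -0.15 over these regions and 0.03 over all. By DESeq2 0 passed, with 7 above and 7 below at that p (1.63% and 0.323% of all), and the limma fit called 0, with 10 above and 11 below (1.53% and 2.84% of all). The FAD libraries are the same as in the comparison with WT, so the comparisons are not independent. Here too the balance turned. At that unadjusted p, library totals gave 2 higher and 10 lower (0.441% and 1.47% of all), and with the library labelled FAD 1 also left out 6 and 44 (0.778% and 7.64% of all). Under TMM, leaving out that library gave 24 higher and 0 lower (4.21% and 0.186% of all), and leaving out FAD ChIP 2 gave 3 and 31 (0.511% and 1.23% of all).

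Regions with higher counts in FAD-BIX were led by Tspyl5, a gene related to nucleosome assembly proteins, with 27 and 21 reads in FAD-BIX, against 6 and 11 in FAD in its 3′ UTR (chr15:33686244-33686651; log2 fold 1.93 ± 0.59). Sdhaf3, an assembly factor of succinate dehydrogenase, held 22 and 16 in FAD-BIX, against 7 and 3 in FAD in its 3′ UTR (2.26 ± 0.75), and the 3′ UTR of Afg1l, a mitochondrial ATPase gene, 21 and 20 in FAD-BIX, against 10 and 5 in FAD (1.79 ± 0.66). Both FAD-BIX libraries lay above both FAD libraries in these 3, chosen by their p, as they did on the RPM scale in 12.6% of all regions, with 19.5% the other way. Exon 3 of Vgll3, a cofactor of TEAD transcription factors, held 26 and 27 in FAD-BIX, against 18 and 14 in FAD (1.10 ± 0.52), and the 3′ UTR of Olfr802 held 15 and 22 in FAD-BIX, against 7 and 11 in FAD (1.46 ± 0.64). The water channel gene Aqp5 (1.75 ± 0.61) and the cilia gene Pkhd1 (1.58 ± 0.74) overlapped, with 48 and 12 reads in FAD-BIX, against 10 and 14 in FAD for Aqp5, and 23 and 11 in FAD-BIX, against 3 and 13 in FAD for Pkhd1. The others were Ryr2 exon 75, Gm3371 (3.87 ± 1.55) and a first exon with no symbol on chromosome 12 (1.39 ± 0.60). Without the library labelled FAD 1, all 10 stayed above 0, from 1.03 (Pkhd1) to 6.97 (Gm3371). As they were chosen by their p on reads that include these, the kept direction is no further evidence.

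Those with lower counts in FAD-BIX included 4 regions that were highest in the library labelled FAD 1. Myh6 exon 22 stood at -3.61 ± 0.79, Lpl at -3.16 ± 1.02, Actc1 exon 3 at -2.54 ± 0.81 and the 3′ UTR of Ttn at -1.53 ± 0.69. Without that library they stood at -0.58, 2.63, 1.07 and 0.27, so 3 of the 4 turned round. Others were lower in both FAD-BIX libraries than in either FAD library. On the RPM scale 19.5% of all regions and 24.5% of exon and UTR regions had that order. The ones given here were chosen by their p, so that groups without overlap are no further evidence. Nppb stood at -1.89 ± 0.60 and, without the library labelled FAD 1, at -1.29, and Ttn exon 341, with 8 and 6 reads in FAD-BIX, against 25 and 23 in FAD, at -1.38 ± 0.64 and -1.06. Mroh2b exon 23 held 2 and 6 in FAD-BIX, against 16 and 23 in FAD (-1.83 ± 0.87), and Gpr75 4 and 4 in FAD-BIX, against 15 and 23 in FAD (-1.78 ± 0.87). The first exon of Pcdhga6, a clustered protocadherin of neuronal identity, held 11 and 7 in FAD-BIX, against 23 and 41 in FAD (-1.36 ± 0.56), and a first exon with no symbol on chromosome 7 stood at -1.41 ± 0.63. The adjusted p was 0.897 for each of these 20 regions in edgeR's test.

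Calls set by the library labelled FAD 1 are again a description of it and no test of the inhibitor. Without FAD ChIP 2, 12 of 487 exon and UTR regions passed as lower in FAD-BIX, against 0.048% of all 39564 regions (19 regions). They lay in Myh6, Actc1, Mb and Lpl, each with 2, and in Pln, Slc25a4, Trpv4 and Nppa, a natriuretic peptide gene, with log2 folds of -1.91 (Trpv4 exon 6) to -6.62 (Nppa). Without FAD-BIX ChIP 1, 9 passed as lower (0.0323% of all) and without FAD-BIX ChIP 2, 8 (0.0276%), while without the library labelled FAD 1 none did and 0.00236% of all regions did. With no filter on low counts 11 of 547 passed as lower, against 0.0321% of all, and under library totals 2, in Lpl and Myh6 (0.00966% of all).

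By function, receptor genes of smell were the largest group, with 37 regions in the FAD versus WT table and 58 in the other. Of 31 tested in FAD versus WT, the unadjusted p was under 0.05 for 0 above and 3 below, against 0.918% and 4.97% of all tested regions. The median log2 fold of the receptor gene regions was -0.23, against 0.01 over all regions. Their summed level was 20.1 and 33.5 RPM in FAD libraries, against 18.3 and 24.7 in WT, so that the groups overlapped. Calls of these regions there numbered 4 and 21 in FAD libraries, against 3 and 11 in WT libraries. Of all regions of that table, the same libraries called 11.6% and 64.7% in FAD, against 17.4% and 12.2% in WT. The values thus depend in part on which library called a region. In FAD-BIX versus FAD, 1 of 41 was higher and 0 lower (3.93% and 1.18% of all tested regions), with a median of -0.04. Calls of these regions numbered 11 and 24 in FAD-BIX, against 4 and 23 in FAD libraries, while of all regions the same libraries called 22.3% and 26.0% in FAD-BIX, against 8.94% and 50.2% in FAD. The highest, Olfr559 at its 3′ UTR, held 17 and 29 reads in FAD-BIX, 33 and 56 in FAD, and 26 and 33 in WT.

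Clustered protocadherins, cell surface proteins that give neurons individual identities, had 6 and 5 regions. Of 4 tested in FAD-BIX versus FAD, 1 was lower at an unadjusted p under 0.05 and all 4 lay below 0, with a median log2 fold of -1.10, against 0.03 over all regions. Their sums were 31 and 48 reads in FAD-BIX, against 90 and 115 in FAD libraries, while FAD libraries held 105 and 134, against 58 and 88 in WT, over the regions of the FAD versus WT table. Both FAD libraries held more than both libraries of the other group in each table. On the RPM scale 19.5% (FAD-BIX versus FAD) and 29.6% (FAD versus WT) of all single regions had that order, which is no like measure for sums. Calls of these regions numbered 1 and 4 in FAD libraries in each table, against 0 and 0 in FAD-BIX and 0 and 1 in WT. The regions thus entered largely through FAD libraries, and the order is no evidence of a difference. These genes share exons and near-identical stretches, so the gene given to a region is uncertain. The FAD libraries are common to both comparisons.

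Glutamate receptor genes had 4 regions in each table. The 3′ UTR of Grin2b, an NMDA receptor subunit, held 11 and 15 reads in FAD-BIX, 17 and 27 in FAD, and 13 and 12 in WT mice (log2 fold of FAD over WT 0.37 ± 0.51). Exon 3 of Grin3a, another NMDA receptor subunit, held 18 and 35 reads in the FAD mice, against 38 and 18 in the WT mice (-0.57 ± 0.52). The groups overlapped in Grin3a, and 0 of the 4 passed an unadjusted p under 0.05 in either comparison. FAD ChIP 2 called all 4 in each table, where it called 64.7% and 50.2% of all regions.

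Other groups gave few regions. Zinc-finger genes had 6 and 10, with 0 at an unadjusted p under 0.05 in either comparison and medians of 0.26 (FAD versus WT) and -0.46 (FAD-BIX versus FAD). Serpin, cytochrome P450 and glucuronosyltransferase genes had 8 and 8, also with 0, and medians of 0.12 and -0.05. The highest of them, the first exon of Ugt1a1, the enzyme that conjugates bilirubin, held 62 and 65 reads in FAD-BIX, 75 and 108 in FAD, and 63 and 78 in WT libraries. Its inputs held 34 and 30 reads in FAD-BIX, 29 and 25 in FAD, and 52 and 54 in WT mice. It shares sequence with the other genes of its cluster, and the gene given is uncertain. Predicted genes had 29 and 34 regions, with 0 higher and 1 lower in FAD versus WT and 1 higher and 0 lower in FAD-BIX versus FAD. No exon or UTR region lay in genes of the housekeeping, ribosomal protein or H3K9 methylation lists, or in the list of transgene-related genes.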

How the data were processed

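H3K9me2 ChIP and input libraries of 6 mice were used. The submitters' processing notes name mm9 as the build and, as tools, MACS2 2.1.0, BWA 0.7.12, Trimmomatic and FastQC. Of the members' genes matched by symbol, 99.6% and 99.5% lay within 100000 bp of their RefSeq position in GRCm38.p6, and 87.4% and 85.6% overlapped it. GRCm38 is therefore the build given with coordinates, although the notes name mm9, and no base was converted. Per the labels' protocols, read lengths were 50 bp (single-end) and 150 bp (paired-end), and the sources used here do not give the type of each library.

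The deposited files, per the file headers, hold counts of reads per region and library, RPM (reads per 1 M reads), and a fold enrichment, the ratio of ChIP to input RPM. The authors' log2 fold change, p-value and q-value compare the groups. The authors' RPM included 1 added read, from which library totals were recovered. RPM printed here are counts over these totals without the added read, and log2 ratios of ChIP to input keep it. Peaks were called in each library and joined, so a region's presence depends on the reads compared. The deposited annotation columns, of unit other, gave the centre, the ends and the gene.

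ChIP counts of each whole table were tested by the quasi-likelihood method of edgeR 4.0.16 under R 4.3.3, scaled by TMM after edgeR's default filter on low counts. Adjustment by Benjamini-Hochberg ran over all regions, with a threshold of 0.05, and exon and UTR regions are printed. The SE of a log2 fold comes from the F statistic. Alternatives used DESeq2 1.42.0 and limma 3.58.1, other scalings, no filter, a replicate block and each library left out. ChIP over input was compared within mice by an exact sign-flip permutation test. Steps were tested on simulated data. With 2 mice per group, p-values measure only the spread between these samples.

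The members and gene lists were chosen with earlier results of these data known. Named were, for each direction, the 10 tested regions of smallest p, the 5 with the highest RPM in each ChIP library, the highest of each list (up to 6 for heart muscle, 3 for others) and those called in at least 3 libraries, of which a selection is given. Genes picked otherwise are marked.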

Additional observations from a re-analysis of the deposited data

How the results depend on the processing

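Of exon and UTR regions, 0 passed in FAD versus WT with DESeq2, DESeq2 size factors, no filter or limma, and 1 passed with library totals (Myh6 exon 22, higher) and 1 with library totals and the library labelled FAD 1 left out (Gm15319, lower). Leaving out 1 ChIP library gave 0 to 12. In FAD-BIX versus FAD, 2 passed with library totals, 11 with no filter and 0 to 12 with 1 library left out. The replicate block called 0 and 0. Same-numbered libraries share a number only (correlations of their deviations 0.06 and -0.04), so it is no paired design. The exon and UTR minus intron difference ranged from -0.23 to -0.06 in the FAD versus WT table with 1 mouse left out, was -0.26 in regions called in at least 2 libraries (below 0 in 4 of 4 mice; exact sign-flip permutation test, two-sided, p = 0.125, the smallest it can give) and -0.05 with 5 reads added. It ranged from -0.13 to 0.010 in the other table, where it turned to 0.0019 with 5 reads added, to 0.037 in regions called in at least 2 libraries and to 0.010 without FAD-BIX mouse 1. Without the library labelled FAD 1 the log2 fold turned to -0.60 and -0.17 at Trpv4 exons 2 and 7 and to -0.24 at Myh6 exon 22 in FAD versus WT, and to 2.63 at Lpl, 1.07 at Actc1 exon 3 and 0.27 at the 3′ UTR of Ttn in FAD-BIX versus FAD, with 1.98 at Lpl and 0.41 at Actc1 under library totals. Over all libraries left out 1 at a time these folds ranged from -0.60 to 2.50, -0.17 to 2.66 and -0.24 to 3.95 in FAD versus WT, and from -4.29 to 2.63, -3.62 to 1.07 and -2.49 to 0.27 in FAD-BIX versus FAD. The cause was not tested. Over 20 named regions in each comparison, 208 and 202 other values kept their direction and side of the threshold, and 7 and 12 came to pass it. These named regions were chosen by their p and did not pass in the main fit, so the kept directions are no further evidence. Without the widest region, left out after the data were seen, exon and UTR minus intron RPM per kb turned to -0.21 and -0.11 in the WT libraries of the FAD versus WT table, and to -0.085 and -0.17 in the FAD-BIX libraries and -0.014 in FAD ChIP 2 of the other. A choice of members by the RefSeq exon annotation was not run, as no exon annotation was used here. Median counts of 9 to 20 reads limit single regions.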

Other observations

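Exon and UTR regions were unevenly spread over the chromosomes. On chromosome 7, 40 of 1607 regions (2.49%) of the FAD versus WT table were centred in an exon or UTR, the largest share of the autosomes, and 51 (2.40%) in the other table. In the authors' deposited table for FAD versus WT, 8 exon and UTR regions were higher and 0 lower at a p-value under 0.05 (1.96%, against 2.67% of all regions), and in that for FAD-BIX versus FAD 3 were higher and 5 lower (1.46%, against 2.09%). The smallest q-value was 1 in both.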
